A study of Homo sapiens with 6 samples.

Results

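Glutathione synthesis and breakdown was followed here through 10 genes in RNA-seq of 253J, a line of human bladder cancer cells, after transfection with control siRNA or with siRNA against the m6A demethylase FTO. The genes were CHAC1, CHAC2, GCLC, GCLM, GSS, GSR, GPX4, CTH, CBS and GGT1, found by matching the Ensembl gene IDs of the files to symbols, and they are 10 of the 60483 genes listed. The list was drawn up when results of this same comparison were already known, CHAC1 having been seen among the strongest falls. The genes were thus chosen by pathway and by the fold change of siFTO over control, so the fold changes and calls of these 10 genes are a description and not a test. The series holds 3 control libraries (replicates 1, 2 and 3) and 3 siFTO libraries (replicates 4, 5 and 6), all of 253J cells grown in RPMI-1640 medium with serum. The time from transfection to harvest is not given in the labels, and the paper describes short hairpin RNAs where the labels name siRNA. Nothing in the sources used here says that the replicates were separate cultures, so the spread between them may be technical. Total counts lay between 10991789 and 19891269 per library.

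Glutathione is the main small thiol of the cell and protects it against peroxides and electrophiles. Glutamate-cysteine ligase, made of the catalytic subunit GCLC and the modifier subunit GCLM, joins glutamate to cysteine, and glutathione synthetase (GSS) then adds glycine. Cysteine comes from imported cystine or from methionine by transsulfuration through cystathionine beta-synthase (CBS) and cystathionine gamma-lyase (CTH). CHAC1 and CHAC2 cleave glutathione in the cytosol, GGT1 cleaves it outside the cell, GPX4 uses it to reduce lipid peroxides, and glutathione reductase (GSR) returns the oxidized form to the pool. CHAC1 and CTH are known targets of the amino acid response factor ATF4, and GCLC, GCLM and GSR of the oxidative stress factor NRF2 (NFE2L2).

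Sequence before the start sites is shown for the genes whose partners behaved differently, CHAC1 beside CHAC2 and GCLM beside GCLC, and for GGT1. A promoter was given by RefSeq on GRCh38.p14 for 8 of the 10 genes, in 14 windows, and the 250 bases before each start site were searched on both strands for the C/EBP-ATF response element TGATGNAA, the antioxidant response element TGACNNNGC and the cAMP response element TGACGTCA. By their letters, TGATGNAA and TGACNNNGC can overlap on opposite strands, and no other pair of these motifs can overlap. The first of these occurs in 3.14% of all 35116 windows, the second in 10.9% and the third in 1.65%. Capitals mark the match, in the orientation of the gene. The CHAC1 and GGT1 stretches lie wholly, and the GCLM stretch partly, within exons of other starts of the same gene in GENCODE 29, so only 30 bases of each are printed.
CHAC1, chr15:40953251-40953280, + strand: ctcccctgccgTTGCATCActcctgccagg
GCLM, chr1:93909445-93909474, - strand: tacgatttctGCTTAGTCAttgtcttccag
GGT1, chr22:24603154-24603183, + strand: ggaaggaggaGCTGGGTCAcagcagggaat
CHAC2, chr2:53767533-53767782, + strand: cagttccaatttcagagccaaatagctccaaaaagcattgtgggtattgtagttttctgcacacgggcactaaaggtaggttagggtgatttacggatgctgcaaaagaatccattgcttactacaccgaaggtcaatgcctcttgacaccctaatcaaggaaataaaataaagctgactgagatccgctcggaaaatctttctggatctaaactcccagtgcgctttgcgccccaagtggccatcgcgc
GCLC, chr6:53545130-53545351, - strand: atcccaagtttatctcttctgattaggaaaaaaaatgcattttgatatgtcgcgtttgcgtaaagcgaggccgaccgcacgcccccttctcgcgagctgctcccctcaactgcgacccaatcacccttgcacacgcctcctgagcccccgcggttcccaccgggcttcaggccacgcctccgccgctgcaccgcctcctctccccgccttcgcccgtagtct
The window of CHAC1 held 1 match to TGATGNAA, on the strand opposite to the gene, 209 to 202 bases before the start site. Matches to TGACNNNGC lay 34 to 26 bases before the start of GCLM and 29 to 21 bases before 1 of the 2 starts of GGT1, and 1 more lay in a window of CBS. The stretches of CHAC2 and GCLC, and the windows of CTH and GPX4, held none of these letters. A match of letters does not show that a factor binds, and their absence from a short window says nothing of the factor.

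FTO itself stood at 31.8, 21.4 and 31.2 CPM (counts per 1000000 on library sizes scaled by TMM) in control replicates 1, 2 and 3 and at 20.2, 20.7 and 15.8 CPM in siFTO replicates 4, 5 and 6. The groups did not overlap, with the nearest libraries at 21.4 and 20.7 CPM, and FTO was called lower (-0.57 on the log2 scale, SE 0.16, edgeR adjusted p = 0.0209). Epithelial markers were abundant in every library, with 6 of 6 markers at 10 CPM or more, whereas of 12 urothelial markers 2 or 3 reached 10 CPM. These were FOXA1 (77.0 to 115.0 CPM), PPARG (53.8 to 75.0 CPM) and, in all but control replicate 3, KRT13 (7.80 to 13.1 CPM). The uroplakins UPK1A, UPK1B, UPK2 and UPK3A stayed under 1 CPM throughout, and UPK3B lay at 1.4 to 2.7 CPM. The 12 urothelial markers summed to 146.9 to 202.2 CPM in a library, and the 9 intestinal markers listed to 1308 to 1646 CPM. All 9 intestinal markers reached at least 1 CPM in every library. At 10 CPM or more there were 7 of these intestinal markers in each control and 9 in each siFTO library. Of these, MUC2, REG4 and KRT20 rose by 2.35, 2.38 and 2.43 on the log2 scale. They were higher in replicate 6 as well as in replicates 4 and 5. CDX2, AGR2 and LGALS4 fell by 0.78, 0.73 and 0.28, and 3 markers were not called. Without replicates 4 and 5, CDX2, AGR2 and LGALS4 lay at -0.61, -0.59 and -0.12. The groups overlapped for LGALS4, which was not called after a correction for gene length and GC content (-0.09). The siFTO replicates 4 and 5 stood apart from replicate 6. The summed level of 12 mesenchymal markers was 2034 and 2506 CPM in replicates 4 and 5, 36.9 CPM in replicate 6 and 23.9 to 25.5 CPM in the controls. VIM (635.5 and 730.4 CPM) and TGFBI (611.5 and 796.2 CPM) were the highest of them in replicates 4 and 5. In each of these replicates 7 of the 12 reached 10 CPM, but COL3A1, THY1, DCN, LUM and PDGFRB did not. PDGFRB lay at 6.9 and 6.8 CPM there, against 4.8 to 7.6 CPM in the controls. Of 9 leukocyte markers 2 reached 10 CPM in replicates 4 and 5 and none in the other libraries, with the pan-leukocyte gene PTPRC at 1 count at most. The part of the intestinal, mesenchymal and leukocyte markers in the results was not tested, and values without replicates 4 and 5 are therefore set beside the results. That fit compares 1 siFTO library with 3 controls, so the spread comes from the controls alone, the lone library is assumed to vary like them, and a call there is a call on that library and not on siFTO. FTO lay at -0.83 on the log2 scale in it. In bulk RNA, fewer cells of a type and less RNA per cell cannot be told apart.

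CHAC1, which degrades glutathione in the cytosol, was sharply lower in the siFTO libraries, whereas its paralog CHAC2 was not. CHAC1 (ENSG00000128965.10) stood at 55.8, 59.9 and 70.5 CPM in the controls and at 8.07, 10.9 and 5.10 CPM in siFTO replicates 4, 5 and 6, from 600, 894 and 1365 counts and 114, 176 and 70 counts. The groups lay far apart, and the lowest library was replicate 6. The mean fell from 62.1 ± 7.60 to 8.04 ± 2.92 CPM (SD, n = 3 each), which is -2.94 ± 0.21 as a log2 fold change with its standard error, which ranked 1 from the bottom of the 14965 genes tested. Without replicates 4 and 5 it was -3.60 (SE 0.23), and CHAC1 passed the threshold in that fit too. CHAC2 (ENSG00000143942.4), known as the slower enzyme of the pair, stood at 10.3, 9.91 and 14.6 CPM in the controls and at 13.2, 12.9 and 14.5 CPM in the siFTO libraries, with overlapping groups and a log2 fold change of 0.21 (SE 0.17). The ratio of CHAC1 counts to CHAC2 counts, which does not depend on the scaling of libraries, was 5.41, 6.04 and 4.82 in the controls and 0.613, 0.846 and 0.352 in siFTO replicates 4, 5 and 6. The more abundant of the 2 transcripts was thus CHAC1 in each control and CHAC2 in each siFTO library, as counted per gene. Per kilobase of exon the mean levels were 30.2 CPM for CHAC1 and 8.80 CPM for CHAC2 in the controls, and 3.91 CPM and 10.2 CPM in the siFTO libraries. Neither gene shared any 50-base word of its transcripts with another gene.

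**Figure D1:**
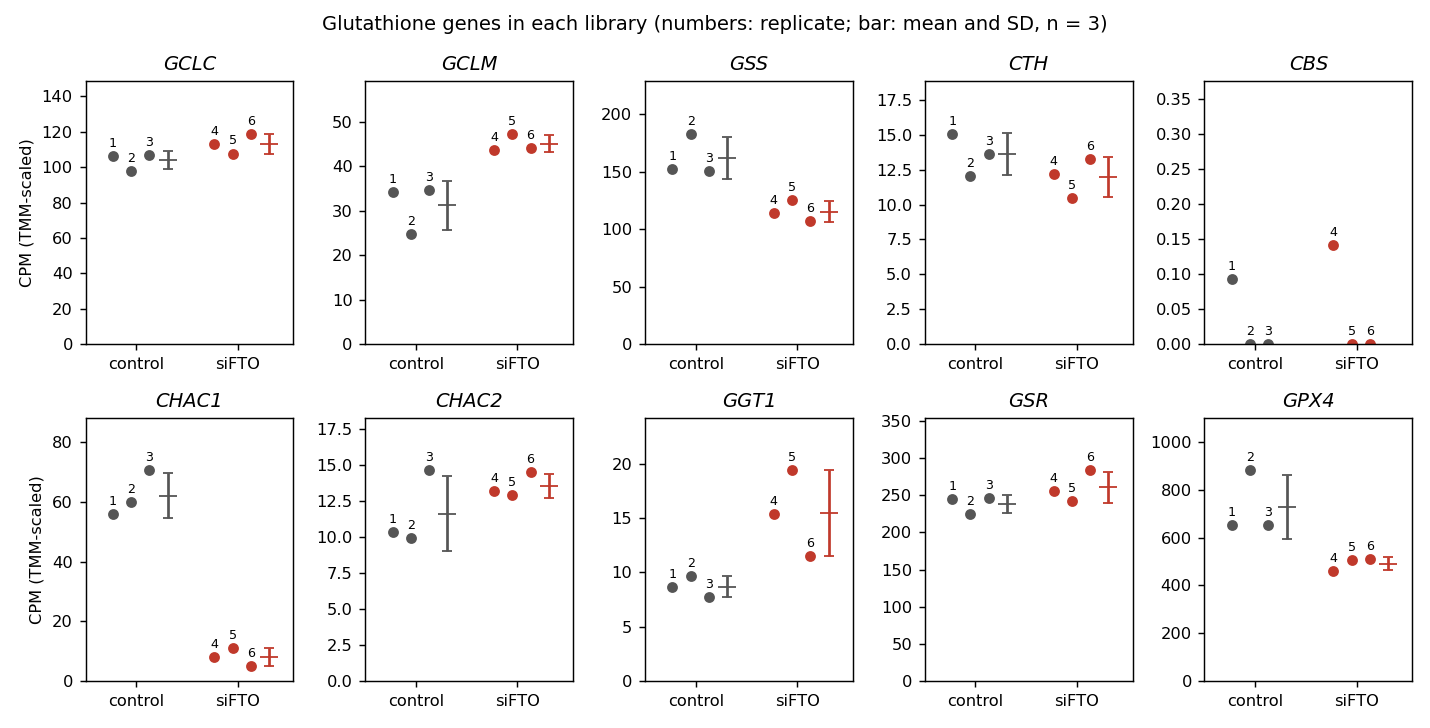
CPM of the 10 glutathione genes on TMM-scaled library sizes in control replicates 1 to 3 and siFTO replicates 4 to 6, with each axis starting at 0. Points are libraries with their replicate number, and bars are the mean and SD of 3 libraries (not drawn for CBS). CHAC1 lies at 55.8 to 70.5 CPM in the controls and at 5.10 to 10.9 CPM in the siFTO libraries.

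GGT1, the cell surface enzyme that starts the breakdown of extracellular glutathione, was higher in the siFTO libraries. GGT1 (ENSG00000100031.17) stood at 8.65, 9.64 and 7.75 CPM in the controls and at 15.4, 19.4 and 11.5 CPM in replicates 4, 5 and 6. The groups did not overlap, and replicate 6, the library with few mesenchymal transcripts, lay nearest to the controls. The mean rose from 8.68 ± 0.947 to 15.5 ± 3.94 CPM (SD, n = 3 each), which is 0.84 ± 0.19 as a log2 fold change with its standard error (SE). Its log2 fold change was 0.41 (SE 0.21) without replicates 4 and 5, and it did not pass the threshold there, nor without control replicate 1 (0.82) or control replicate 3 (0.75). GGT1 also belongs to a family of close copies: 35.9% of its 50-base words occur in transcripts of other genes, among them GGT2, GGT3P and GGTLC2, so its level is uncertain. GGT2 itself had at most 3 counts in any library.

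The subunits of glutamate-cysteine ligase differed, with the modifier subunit GCLM higher in the siFTO libraries and the catalytic subunit GCLC close to its control level. GCLM (ENSG00000023909.8) stood at 34.2, 24.9 and 34.6 CPM in the controls and at 43.7, 47.3 and 44.2 CPM in the siFTO libraries. Every siFTO library lay above every control, and replicates 4, 5 and 6 were alike. The mean rose from 31.2 ± 5.53 to 45.1 ± 1.96 CPM (SD, n = 3 each), which is 0.53 ± 0.13 as a log2 fold change with its standard error. GCLM did not pass without replicates 4 and 5, where its log2 fold change was 0.50 (SE 0.18). GCLC (ENSG00000001084.9) stood at 106.5, 98.0 and 107.0 CPM in the controls and at 113.1, 107.7 and 118.9 CPM in the siFTO libraries. Its groups just failed to overlap, but the log2 fold change of 0.12 (SE 0.08) did not pass, and it turned to -0.09 (SE 0.07) after a correction for gene length and GC content. The ratio of GCLM counts to GCLC counts was 0.321, 0.254 and 0.324 in the controls and 0.387, 0.439 and 0.372 in the siFTO libraries, so that all 3 siFTO libraries lay above all 3 controls. GCLC shared 6.24% of its 50-base words with other genes, most of them with AL033397.1 (5.45% of the words of GCLC). Over 8 coding transcripts of GCLC the shared part was 0% to 88.8%, with a median of 0%.

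Glutathione synthetase was lower in the siFTO libraries. GSS (ENSG00000100983.8) stood at 152.3, 182.9 and 150.1 CPM in the controls and at 113.8, 125.0 and 106.7 CPM in the siFTO libraries. The groups did not overlap, and replicate 6 was the lowest library. The mean fell from 161.8 ± 18.4 to 115.2 ± 9.20 CPM (SD, n = 3 each), which is -0.49 ± 0.10 as a log2 fold change with its standard error. GSS also passed without replicates 4 and 5 (-0.60, SE 0.16). The ratio of GSS counts to GCLC counts was 1.43, 1.87 and 1.40 in the controls and 1.01, 1.16 and 0.898 in the siFTO libraries.

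GPX4, the selenoenzyme that reduces lipid peroxides at the expense of glutathione, was lower, whereas GSR, which regenerates glutathione with NADPH, was not. GPX4 (ENSG00000167468.15) stood at 653.1, 882.5 and 651.9 CPM in the controls and at 459.6, 505.4 and 510.4 CPM in the siFTO libraries. All siFTO libraries lay below all controls, and control replicate 2 stood above the others. The mean fell from 729.2 ± 132.8 to 491.8 ± 28.0 CPM (SD, n = 3 each), which is -0.57 ± 0.12 as a log2 fold change with its standard error. The fold change of GPX4 was -0.26 (SE 0.08) once length and GC content were corrected for, and GPX4 did not pass without replicates 4 and 5 (-0.51, SE 0.19). GSR (ENSG00000104687.11) stood at 244.4, 224.4 and 246.8 CPM in the controls and at 256.0, 242.7 and 283.5 CPM in the siFTO libraries, with overlapping groups and a log2 fold change of 0.13 (SE 0.09).

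CTH, the lyase that releases cysteine in transsulfuration, showed no call. CTH (ENSG00000116761.10) stood at 15.1, 12.1 and 13.6 CPM in the controls and at 12.2, 10.5 and 13.3 CPM in the siFTO libraries, with overlapping groups and a log2 fold change of -0.18 (SE 0.14). It rested on 162 to 264 counts in a library. CBS (ENSG00000160200.16), the first enzyme of transsulfuration, was listed at 1, 0 and 0 counts in the controls and 2, 0 and 0 counts in the siFTO libraries, where 3 counts correspond to 0.155 to 0.279 CPM. Its row cannot be read as a level: 54.5% of the 50-base words of its transcripts also occur in CBSL, a near-identical entry of the annotation. CBSL is listed in the same files and had 1 count in all libraries together. Over 8 coding transcripts of CBS the shared part was 73.9% to 100%, with a median of 96.0%. A read from such a stretch cannot be assigned to 1 of the 2 entries, and how the counting treated it is not stated. CBS expression was therefore not measurable from these counts, and CBS did not enter the tests.

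**Figure D2:**
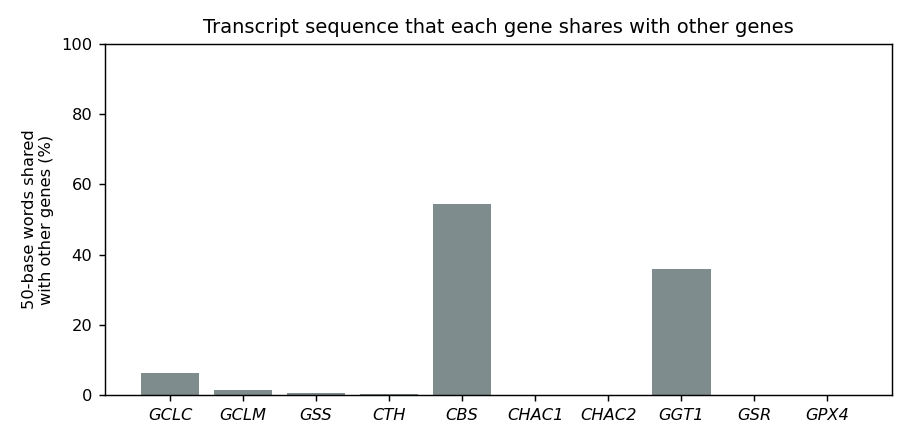
Percent of the distinct 50-base words in the GENCODE 29 transcripts of each gene that also occur, on either strand, in a transcript of another gene. CBS stands at 54.5% and GGT1 at 35.9%, while GCLC is at 6.24% and the other 7 genes are at 1.31% or less.

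Across the 9 genes that passed the filter on low counts, 2 were called higher (GCLM and GGT1), 3 were called lower (CHAC1, GSS and GPX4) and 4 were not called (CHAC2, GCLC, GSR and CTH) at an adjusted p under 0.05 from edgeR's quasi-likelihood test. Of all 14965 genes tested, 37.4% were called in this comparison, 19.5% higher and 17.9% lower, and since the genes were proposed from this comparison nothing is read from their share. Their median log2 fold change was 0.12, against 0.0057 for all genes tested. The groups did not overlap in 6 of the 9, against 51.4% of all genes tested. By direction, 3 of the 9 lay wholly above the controls and 3 wholly below, against 25.8% and 25.6%. Without replicates 4 and 5 the calls were 0 higher and 2 lower (CHAC1 and GSS), against 6.17% and 5.89%, or 12.1% in either direction, of 15713 genes. The share of all genes called was 18.5%, 19.9% and 22.5% when control replicate 1, 2 or 3 was left out, and 21.4%, 27.8% and 41.6% when siFTO replicate 4, 5 or 6 was. It was 37.3% with size factors of the DESeq2 type, 37.2% with upper-quartile factors, 19.6% with no filter and 40.1% where every library had to hold 10 counts. DESeq2 called 34.6%, limma voom 35.4% and the length and GC correction 34.5%. On library totals alone 39.3% were called, 27.3% higher and 11.9% lower, and the median of all genes lay at 0.13 on the log2 scale. The same 2 genes were higher and the same 3 lower there. Of the genes not called, CHAC2 lay at 0.31, GCLC at 0.20, GSR at 0.25 and CTH at -0.03 without replicates 4 and 5, and none was called.

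**Figure D3:**
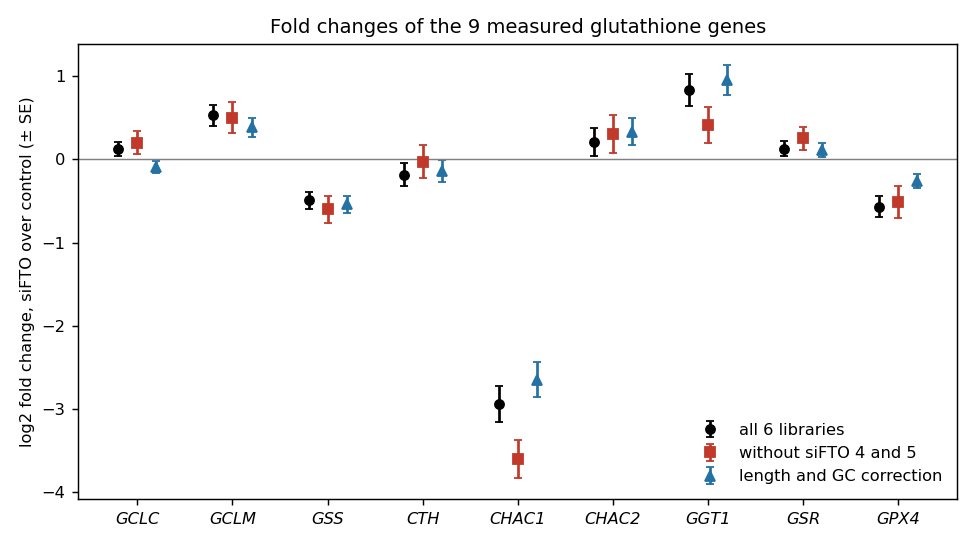
Log2 fold change of siFTO over control with its SE for the 9 measured genes, in the fit of all 6 libraries (circles), without siFTO replicates 4 and 5 (squares) and with the correction for gene length and GC content (triangles). CHAC1 lies at -2.94, -3.60 and -2.65 in these fits, while the other genes lie between -0.60 and 0.96.

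Compared per kilobase of exon, GPX4 was the most abundant of these transcripts in the controls, at 361.1 ± 65.8 CPM per kilobase (SD, n = 3), followed by GSR at 63.4 ± 3.27. CHAC1 came next at 30.2 ± 3.69 and GSS at 26.2 ± 2.97, and these neighbours overlapped, with 27.1 to 34.3 and 24.3 to 29.6 CPM per kilobase. GCLC followed at 12.0 ± 0.585 and CHAC2 at 8.80 ± 1.98, without overlap between them. GCLM at 5.76 ± 1.02 and CTH at 5.63 ± 0.625 overlapped, and GGT1 was lowest of the measured genes at 1.96 ± 0.214. In the siFTO libraries GPX4, GSR and GSS were the most abundant, at 243.6 ± 13.9, 69.3 ± 5.54 and 18.6 ± 1.49 CPM per kilobase. CHAC1 had moved down to 3.90 ± 1.42, where its libraries at 2.48 to 5.32 overlapped those of GGT1 (2.60 to 4.38) and CTH (4.33 to 5.50). Lengths were those of all annotated exons of a gene in GENCODE 29, which can exceed the length of the transcripts expressed.

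By the root-mean-square difference of log2 CPM, centred on the control mean, over the 6 libraries, the genes with the pattern most like that of CHAC1 among 10343 genes of sufficient level were ASNS (0.42), NUPR1 (0.60) and PCK2 (0.62). ASNS, the asparagine synthetase, stood at 989.0, 1165 and 671.6 CPM in the controls and at 164.5, 153.1 and 107.8 CPM in the siFTO libraries. All 3 were lowest in replicate 6, as was CHAC1. The genes nearest to GPX4 were CST3 (0.026), NDUFB11 (0.033) and TNNT1 (0.035), and those nearest to GCLM were SIPA1L3 (0.047), ZBTB18 (0.048) and RPS6KA3 (0.048). GGT1 was nearest to ZNF503 (0.078), RAB11FIP5 (0.098) and CLU (0.10). The difference was not scaled to the size of the change, and CHAC1 had the lowest fold change of all genes tested. Distances are therefore not compared between the members. These likenesses rest on 6 libraries and are a description.

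Of the regulators of these genes, ATF4 was much lower in the siFTO libraries and NFE2L2, which encodes NRF2, was modestly lower. ATF4 stood at 1197, 1463 and 1200 CPM in the controls and at 507.4, 485.3 and 454.3 CPM in the siFTO libraries, a log2 fold change of -1.42 (SE 0.10, edgeR adjusted p = 5.56e-05). Replicates 4, 5 and 6 were alike for ATF4, and the groups lay far apart. Without replicates 4 and 5, ATF4 lay at -1.50, BACH1 at 0.86 and KEAP1 at -0.29. NFE2L2 fell by 0.43 on the log2 scale (SE 0.09, edgeR adjusted p = 0.00476), a call lost on leaving out replicates 4 and 5 (-0.47). Its inhibitor KEAP1 lay at -0.24 on the log2 scale (edgeR adjusted p = 0.0502). BACH1, a repressor at antioxidant response elements, rose by 0.74 on the log2 scale (SE 0.14, edgeR adjusted p = 0.00355). ATF3, which acts with ATF4, was high in siFTO replicates 4 and 5 (17.1 and 19.3 CPM) but not in replicate 6 (3.72 CPM), with controls at 4.49 to 6.51 CPM. It passed with all libraries (1.33, edgeR adjusted p = 0.0425) but not without replicates 4 and 5 (-0.52), nor without control replicate 1, 2 or 3 or siFTO replicate 4 or 5. CHOP (DDIT3) and CEBPB were lowest in replicate 6, at 21.3 and 24.6 CPM, against 47.1 and 52.8 CPM for DDIT3 and 39.1 and 51.4 CPM for CEBPB in replicates 4 and 5. Neither passed with all libraries (edgeR adjusted p of 0.171 and 0.181), and replicate 6 alone lay at -1.47 and -1.03 on the log2 scale from the controls. The NRF2 partner MAFG and the NRF2-related factor NFE2L1 had log2 fold changes of 0.23 and 0.16 and did not pass.

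Among 70 further genes listed by role around glutathione metabolism, 63 were tested. The lists were drawn up with earlier results of these data known, so their shares, here and below, are a description and not a test. Of the 63 genes, 7 were called higher, 24 called lower and 32 not called, against 19.5% higher and 17.9% lower of all genes tested. Their median log2 fold change was -0.18. Without replicates 4 and 5, 4 of 65 were higher and 17 were lower, against 6.17% and 5.89% of all genes in that fit, with a median of -0.31. Each of 21 of the 31 genes called also passed in all 6 fits that left out 1 library. GGT5, ANPEP, CDO1, GPX7 and GSTA1 stayed under 1 CPM in every library, and GSTT1 was not matched to a row.

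Among genes of cystine uptake and cysteine handling, 6 of 12 tested were called lower and 2 higher, against 17.9% and 19.5% of all genes tested. Without replicates 4 and 5 these were 6 lower and 1 higher of 12, against 5.89% and 6.17%. SLC7A11, the light chain of the cystine-glutamate exchanger, stood at 101.4, 92.6 and 94.2 CPM in the controls and at 54.1, 56.5 and 18.1 CPM in replicates 4, 5 and 6. Replicate 6 was lowest by far, and all siFTO libraries lay below the controls. The log2 fold change of SLC7A11 was -1.16 (SE 0.31, edgeR adjusted p = 0.0157) and -2.41 without replicates 4 and 5, but the call was lost on leaving out control replicate 1, 2 or 3. Its heavy chain SLC3A2, named after its values were seen, fell by 0.69 (SE 0.14), which did not pass without control replicate 2. The glutamine transporter SLC1A5 fell by 1.01 (SE 0.09) and the mercaptopyruvate sulfurtransferase MPST by 0.82 (SE 0.15) on the log2 scale. Methionine synthase reductase, MTRR, rose by 0.70 (SE 0.12), whereas methionine synthase, MTR, passed with all libraries (0.36, SE 0.13) but in none of the fits without 1 library, nor with the length and GC correction (0.11) or without replicates 4 and 5 (0.45). In that last fit SLC3A2 and SLC1A5 each lay at -1.04, MPST at -0.68 and MTRR at 0.62, all called.

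Of 8 other tested genes that act on glutathione breakdown or on gamma-glutamyl compounds, 4 were called lower and 0 higher, against 17.9% and 19.5% of all genes. The gamma-glutamyl amine cyclotransferase GGACT fell by 0.72 (SE 0.20), the gamma-glutamylcyclotransferase GGCT by 0.62 (SE 0.14) and the 5-oxoprolinase OPLAH by 0.60 (SE 0.17) on the log2 scale. GGCT, which acts on gamma-glutamyl amino acids, stood at 49.8, 66.6 and 49.5 CPM in the controls and at 35.4, 32.1 and 40.5 CPM in the siFTO libraries. The 4 lower genes (with CNDP2, a dipeptidase that cleaves cysteinylglycine, as the fourth) did not pass without replicates 4 and 5, and of them only GGCT passed in all 6 fits that left out 1 library. GGACT lost its call on leaving out control replicate 1 or 2 or siFTO replicate 4, OPLAH on leaving out control replicate 1, 2 or 3 or siFTO replicate 4, and CNDP2 passed only without siFTO replicate 6.

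Of 4 other glutathione peroxidases tested, GPX2 was higher and 3 did not pass, against 19.5% higher and 17.9% lower of all genes. GPX2, the gastrointestinal peroxidase, stood at 178.2, 186.2 and 166.3 CPM in the controls and at 273.0, 259.1 and 345.7 CPM in the siFTO libraries. The groups did not overlap, and replicate 6 was highest. Its log2 fold change was 0.73 (SE 0.11, edgeR adjusted p = 0.00165), and 0.97 without replicates 4 and 5. GPX8, a peroxidase of the endoplasmic reticulum singled out with its values known, was low in replicate 6 alone (18.5 CPM), with 39.4 and 39.3 CPM in replicates 4 and 5 against 38.6 to 42.2 CPM in the controls, and was not called with all libraries (-0.31). GPX2 was thus higher in the same libraries in which GPX4 was lower. Of 9 glutaredoxin and thioredoxin genes, 1 was lower and 8 did not pass, against the same shares of all genes. The lower gene was the mitochondrial thioredoxin TXN2 (-0.49, SE 0.09, but not called without replicates 4 and 5).

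Glutathione S-transferases conjugate glutathione to electrophiles. Of 13 genes tested, which were transferases and the related GSTCD, 6 were lower and 2 higher, where 17.9% and 19.5% of all genes were. GSTP1, the most abundant of them per kilobase of exon (412.4 CPM per kilobase in the controls), stood at 701.7, 914.7 and 748.1 CPM in the controls and at 435.4, 512.1 and 481.0 CPM in the siFTO libraries, a log2 fold change of -0.73 (SE 0.11, edgeR adjusted p = 0.00153). GSTZ1, an enzyme of tyrosine breakdown, fell by 0.85 (SE 0.12) and GSTO2, an omega-class enzyme, by 0.79 (SE 0.12) on the log2 scale. These 3 passed in each fit without 1 library and without replicates 4 and 5. The higher genes were GSTCD (0.63, SE 0.13, and 0.80 without replicates 4 and 5), whose conjugating activity is not taken as given here, and the microsomal enzyme MGST1 (1.78, SE 0.45). MGST1 reached 134.1 and 151.3 CPM in replicates 4 and 5 against 28.7 CPM in replicate 6, which lay close to the controls (28.7 to 31.6 CPM). Its call was lost on leaving out control replicate 1, 2 or 3, and without replicates 4 and 5 (-0.09). GSTM1, singled out after its values were seen, had 39 and 38 counts in replicates 4 and 5 and 0 counts in the other 4 libraries. In the libraries with the mesenchymal transcripts MGST1 was thus high, and GSTM1 was detected at a low level (2.76 and 2.36 CPM). GSTM1 did not enter the tests, and the part of the mesenchymal markers was not tested.

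Of 11 genes of conjugate export, mitochondrial import and the glyoxalase route, the calls were 2 higher and 4 lower, against 19.5% and 17.9% of all genes. ABCC2, an apical exporter of glutathione conjugates, stood at 4.65, 2.81 and 3.51 CPM in the controls and at 23.3, 26.7 and 11.7 CPM in the siFTO libraries. The groups did not overlap, and its log2 fold change of 2.51 (SE 0.30, edgeR adjusted p = 0.000618) was 1.71 without replicates 4 and 5. The basolateral exporter ABCC3 went the other way, from 140.9, 135.4 and 120.0 CPM to 77.7, 84.1 and 73.0 CPM, with a log2 fold change of -0.75 (SE 0.09, edgeR adjusted p = 0.000698). ABCC5 rose by 0.32 (SE 0.09), a call that was lost on leaving out control replicate 1 or siFTO replicate 4 or 6, with the length and GC correction, and without replicates 4 and 5 (0.39). ABCC3 lay at -0.85 without replicates 4 and 5. SLC25A39, a carrier of glutathione into mitochondria, and HAGH, the glyoxalase II hydrolase, fell by 0.53 (SE 0.10) and 0.59 (SE 0.12) on the log2 scale, and HAGH did not pass without replicates 4 and 5. Of 6 genes that supply NADPH, 3 were lower and none was higher, against the same shares of all genes. The lower genes were IDH2 (-0.52), the transhydrogenase NNT (-0.47) and the malic enzyme ME1 (-0.43), of which ME1 did not pass without control replicate 1 and NNT and ME1 did not pass without replicates 4 and 5.

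**Figure D4:**
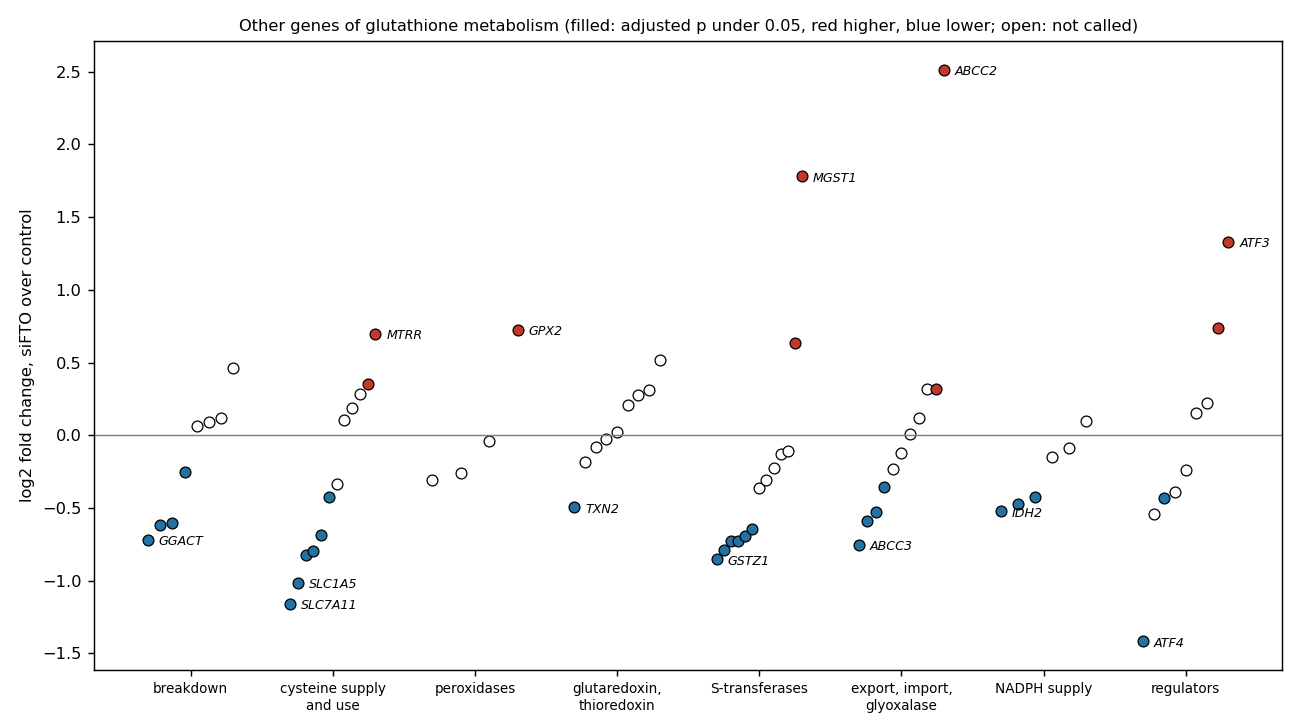
Log2 fold change of siFTO over control for the tested genes of each list, ordered within a list. Filled points passed an adjusted p under 0.05 from edgeR (red higher, blue lower), open points did not, and the labels name the called gene at either end of a list and those past 1 in size. SLC7A11 lies at -1.16 and ATF4 at -1.42, ABCC2 at 2.51.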

How the data were processed

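RNA-seq was analysed in 3 control and 3 siFTO libraries of 253J cells. The authors deposited 1 file of raw read counts per gene and library, and the processing notes of the submitters list TopHat2 2.0.11, HTSeq, hg19 and GRCh37. For HTSeq, the version, annotation release and strand mode were not given in the sources used here. Because CBSL is listed beside CBS, the build behind the counts is unsettled. Exon lengths come from GENCODE 29 (GRCh38), joined on unversioned IDs (56753 of 60483). Symbols were matched for 56321 IDs.

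Genes with low counts were removed (filterByExpr of edgeR 4.0.16 in R 4.3.3, minimum count 10, minimum total 15), libraries were scaled by TMM, and edgeR's quasi-likelihood model of group alone was fitted to 14965 genes, with two-sided tests, Benjamini-Hochberg adjustment over all of them and a threshold of 0.05. The standard error is the log2 fold change divided by the square root of F. The code was tested on simulated data. Alternatives were other scalings, filters, DESeq2 1.42.0, voom of limma 3.58.1, offsets for length and GC content (splines with 4 degrees of freedom), and leaving out libraries. The genes, lists and alternatives were chosen with earlier results of these data known. Named genes were all 10 members, the regulators, FTO, the undetected genes, up to 3 called genes in each direction of each list with the largest changes, the leading marker genes, and for members with a log2 fold change of at least 0.5 in size the 3 nearest genes whose average log2 CPM was 3 or more. Not all of them are printed.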

Additional observations from a re-analysis of the deposited data

How the results depend on the processing

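Among the 10 glutathione genes, the counts of 2 higher and 3 lower calls were the same with other scalings, with no filter or a stricter filter, with DESeq2, with limma voom and with the correction for length and GC content, and the lower calls stayed at 3 in each fit without 1 library. The higher calls ranged from 1 to 2 in the fits without 1 library, and without siFTO replicates 4 and 5 together they were 0. Among the other genes of glutathione metabolism, the higher calls ranged from 4 to 9 in the fits without 1 library and were 4 without siFTO replicates 4 and 5 together, against 7 with all libraries. Those fits also had fewer samples. GCLC turned to -0.0918 on the log2 scale with the correction for length and GC content, and the cause was not tested. CHAC1 lay between -3.60 and -2.65 in all 15 alternatives and passed in each. No paired analysis was possible because the controls are numbered 1 to 3 and the siFTO libraries 4 to 6, with no number in common. With CHAC2, CTH and GGT1 at 93 to 312 counts in a library, small changes of these genes may not have been detectable at this depth.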
